A study of Mus musculus with 6 samples.

Results

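The 8 genes described here encode the integrin chains that are characteristic of white blood cells, together with kindlin-3, the adaptor that activates them. They are the α chains *Itgam*, *Itgal*, *Itgax*, *Itga4* and *Itgae*, the β chains *Itgb2* and *Itgb7*, and *Fermt3*. They were taken by gene symbol from the normalized table of the study, which holds 16180 gene identifiers, and were joined by identifier to the raw count table of 51912 genes. All 8 were found in both tables, and all 8 passed the filter on low counts among 14696 genes tested. The filter asked for enough reads in at least 3 mice, so a gene low in 1 genotype could pass through the mice of the other. RNA came from the soleus, a calf muscle that holds both slow and fast fibers, of 3 mice heterozygous for the Mustn1 KO-first allele (HET) and 3 wild-type littermates (WT), all 8 weeks old and of the strain C57BL6/N. The allele is a gene trap, in which a lacZ and neomycin resistance cassette captures the *Mustn1* transcript after its first exon. It is present in all cells of the body, and each HET mouse keeps 1 wild-type copy.

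Integrins are adhesion receptors made of 1 α and 1 β chain, and a chain that finds no partner is not carried to the cell surface. The β2 chain, encoded by *Itgb2*, pairs with the α chains of *Itgal* (LFA-1), *Itgam* (Mac-1, CD11b), *Itgax* (CD11c) and *Itgad*, and these receptors bind ICAMs, fibrinogen and complement fragments. The α4 chain, from *Itga4*, pairs with β1 to bind VCAM-1 and fibronectin, or with β7, from *Itgb7*, to bind MAdCAM-1, while αE, from *Itgae*, pairs with β7 to bind E-cadherin. Blood leukocytes carry these integrins in an inactive state, and talin and kindlin-3 switch them on by binding the tail of the β chain. Kindlin-3 is confined to blood-derived cells and endothelium, and its loss in humans causes a leukocyte adhesion deficiency, as does the loss of β2. In muscle the cells that carry them are mainly resident macrophages and the leukocytes that enter from blood.

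Each library held between 26790075 and 50368796 reads on genes. Contrary to the sex in the labels, which is male, *Xist* had 3858 to 9154 reads and the Y-linked *Ddx3y*, *Kdm5d*, *Uty* and *Eif2s3y* together 0 to 12 reads in every library of both genotypes. The 7 genes listed for slow fibers summed to 37190 to 42316 and the 7 genes listed for fast fibers to 43711 to 52483 normalized counts per library, so that transcripts of both fiber types were abundant. *Mustn1* was measured at 12.6, 16.8 and 13.1 of these normalized counts in HET mice 1 to 3 and at 23.1, 29.0 and 30.5 in WT mice 1 to 3. The log2 fold change of *Mustn1* was -0.96 ± 0.15 (SE), with an adjusted p of 0.0452 in edgeR's quasi-likelihood test, and the genotype labels and the *Mustn1* values went together in all 6 mice. Normalized counts are given throughout as CPM, that is, reads scaled to a common library total with the TMM method. Log2 fold changes are HET over WT from edgeR with their standard errors. The p-values of edgeR test this difference against the variation between mice of the same genotype.

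Since members of the set are genes of the same cell lineages, the sequence upstream of their start sites is shown for 3 of them, the neighbors *Itgam* and *Itgax* on chromosome 7, and *Fermt3*. The 250 bases before the start given by RefSeq (build GRCm38.p6) were searched on both strands for GAGGAA (reverse complement TTCCTC), a core of the sites of the myeloid transcription factor PU.1, and for TGTGGT (reverse complement ACCACA), the core of RUNX sites. Both motifs were chosen after the sequences had been looked at. Matches are in capitals, and the sequences read 5′ to 3′ on the strand of the gene.
Itgam, chr7:128062390-128062639, plus strand: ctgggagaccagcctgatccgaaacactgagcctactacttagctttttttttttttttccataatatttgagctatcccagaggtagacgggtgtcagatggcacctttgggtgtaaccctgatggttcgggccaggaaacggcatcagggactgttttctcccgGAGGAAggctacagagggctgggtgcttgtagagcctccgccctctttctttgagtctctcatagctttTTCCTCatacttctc
Itgax, chr7:128129300-128129549, plus strand: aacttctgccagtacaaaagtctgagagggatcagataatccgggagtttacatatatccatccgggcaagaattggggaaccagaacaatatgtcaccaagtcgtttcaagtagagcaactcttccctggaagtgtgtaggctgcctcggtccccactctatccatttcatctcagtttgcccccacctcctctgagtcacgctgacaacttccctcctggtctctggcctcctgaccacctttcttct
Fermt3, chr19:7019470-7019719, minus strand: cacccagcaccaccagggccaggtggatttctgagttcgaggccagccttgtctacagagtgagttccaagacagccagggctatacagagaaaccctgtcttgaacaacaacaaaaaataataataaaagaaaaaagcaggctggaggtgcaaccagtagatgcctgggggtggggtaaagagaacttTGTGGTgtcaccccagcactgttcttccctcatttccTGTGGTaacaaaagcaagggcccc

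The *Itgam* window holds the PU.1 core on both strands, at positions -84 to -79 and -15 to -10 from the start. The *Itgax* window, from the gene next to it, holds neither motif. The *Fermt3* window holds the RUNX core at -61 to -56 and at -24 to -19, and the *Itga4* window holds it at -60 to -55. The table of promoters holds 5 of the 8 genes, these 4 and *Itgb7*, in which neither motif was found. Of 32851 windows of the same length, 23.3% hold the PU.1 core and 14.0% the RUNX core, so a match in 1 or 2 of 5 windows describes these sequences and is not evidence of binding.

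Of the 8 genes, 7 had a log2 fold change above 0 and 1, *Itgae*, below 0, and the median was 1.03 against -0.02 over all genes tested. In 6 of them, *Itgb2*, *Itgam*, *Itgax*, *Itga4*, *Itgb7* and *Fermt3*, every HET mouse lay above every WT mouse, a pattern found in 7.55% of all genes tested. None of the 8 passed an adjusted p of 0.05 in edgeR, where 0.143% of the genes tested were called higher and 0.0068% lower in HET. At an unadjusted p below 0.05 the same 6 were higher and 0 were lower, against 5.76% of all genes tested that were higher. DESeq2 called 1 of the 8 higher, *Itgb2*, against 1.41% of its genes, and limma-voom called 0. Both tools had 6 of the 8 higher at an unadjusted p below 0.05. The level of a gene in whole muscle combines the number of cells and the RNA per cell, so that more (or fewer) cells of a type and more (or less) RNA per cell cannot be told apart.

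**Figure D1:**
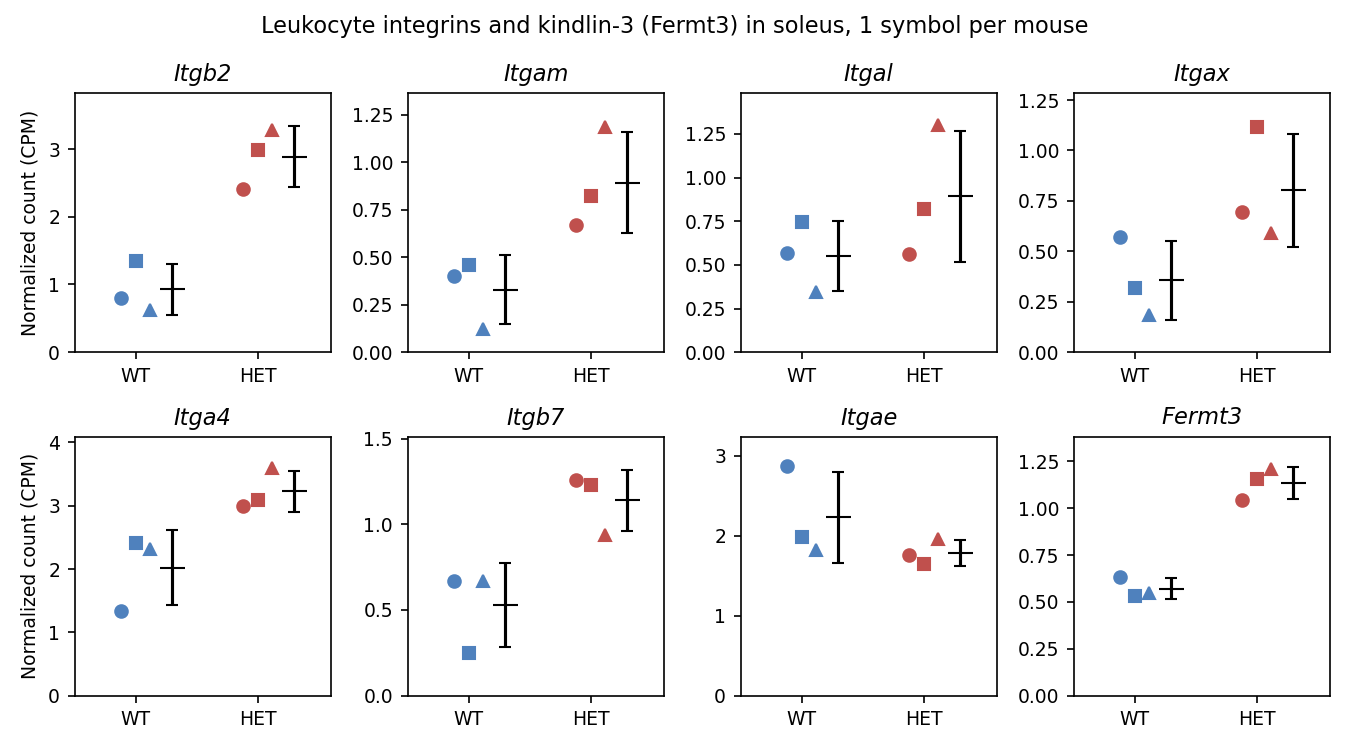
Normalized counts (CPM, linear axes from 0) of the 8 genes in WT (blue) and HET (red) soleus, with 1 symbol per mouse (circle, square and triangle for mice 1, 2 and 3) and a bar for the mean ± SD of 3 mice. The genotypes do not overlap in 6 panels, and they overlap for *Itgal* and *Itgae*.

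*Itgb2* (ENSMUSG00000000290, chromosome 10, 77530252 to 77565708, plus strand), the common β2 chain, had 90, 80 and 144 reads in HET mice 1 to 3 and 24, 38 and 31 reads in WT mice 1 to 3. These counts correspond to 2.40, 2.98 and 3.28 CPM in HET and to 0.803, 1.35 and 0.628 CPM in WT. The lowest HET mouse lay well above the highest WT mouse. The mean was 2.89 ± 0.45 CPM in HET and 0.926 ± 0.375 CPM in WT (SD, n = 3), 3.12 times as high. The log2 fold change was 1.67 ± 0.30, with a 95% interval from 1.01 to 2.34. It had rank 34 by p among all genes tested, with an adjusted p of 0.0785 in edgeR. The adjusted p was 0.000315 in DESeq2, and 1.53e-06 in edgeR with no filter on low counts, where 1.33% of 29081 genes were called higher. Over all 14 alternative fits the adjusted p of *Itgb2* ranged from 1.53e-06 to 0.343.

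*Itgam* (ENSMUSG00000030786, chromosome 7, 128062640 to 128118491, plus strand) encodes the α chain of the complement receptor of macrophages and neutrophils. It had 25, 22 and 52 reads in HET mice 1 to 3 and 12, 13 and 6 reads in WT mice. The CPM were 0.668, 0.820 and 1.18 in HET and 0.401, 0.461 and 0.122 in WT, so that HET mouse 3 was the highest and WT mouse 3 the lowest. For *Itgam* the log2 fold change was 1.53 ± 0.48 (95% interval 0.46 to 2.61), and the adjusted p in edgeR was 0.344. With no filter on low counts the adjusted p of *Itgam* in edgeR was 0.0455. That fit called 1.33% of 29081 genes higher, against 0.143% in the main fit. Over 14 alternative fits the adjusted p of *Itgam* ranged from 0.0455 to 0.952. In the annotation of the count table, *Itgam* shares 3450 of its 5024 exon bases, or 68.7%, with the predicted gene *Gm49368* on the same strand, and reads on more than 1 gene were left out by the authors. *Gm49368* itself held 0 to 1 reads. The counts of *Itgam* therefore come from the remaining 1574 bases and understate its level.

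*Itgax* (ENSMUSG00000030789, chromosome 7, 128129547 to 128150657, plus strand), used as a marker of dendritic cells and some macrophages, had 26, 30 and 26 reads in HET mice 1 to 3 and 17, 9 and 9 reads in WT mice. In CPM the HET mice had 0.694, 1.12 and 0.593 and the WT mice 0.569, 0.319 and 0.182. HET mouse 3 lay only just above WT mouse 1, which was the highest of its group. In edgeR the log2 fold change was 1.19 ± 0.47 (95% interval 0.16 to 2.23), with an adjusted p of 0.539 in edgeR.

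*Itgal* (ENSMUSG00000030830, chromosome 7, 127296260 to 127335138, plus strand), the α chain of LFA-1 and the one carried by lymphocytes as well as myeloid cells, had 21, 22 and 57 reads in HET mice 1 to 3 and 17, 21 and 17 reads in WT mice. The CPM were 0.561, 0.820 and 1.30 in HET and 0.569, 0.745 and 0.344 in WT. HET mouse 1 lay between the WT mice, and HET mouse 3 stood above all others. With overlapping groups, the log2 fold change was 0.75 ± 0.42 (95% interval -0.19 to 1.68), with an adjusted p in edgeR of 0.786. Without HET mouse 3 the value for *Itgal* was 0.35. *Itgad*, the fourth partner of β2, had 3, 1 and 0 reads in HET and 0, 0 and 1 in WT, too few for a test or a fold change.

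*Itga4* (ENSMUSG00000027009, chromosome 2, 79255426 to 79333123, plus strand), the α4 chain of VLA-4, had 112, 83 and 158 reads in HET mice 1 to 3 and 40, 68 and 114 reads in WT mice. The CPM were 2.99, 3.09 and 3.60 in HET and 1.34, 2.41 and 2.31 in WT. The HET mice lay close together above the WT mice, of which mouse 1 was the lowest. The log2 fold change was 0.67 ± 0.24 (95% interval 0.13 to 1.21), and the adjusted p in edgeR was 0.450.

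*Itgb7* (ENSMUSG00000001281, chromosome 15, 102215995 to 102231935, minus strand), the β7 chain that pairs with α4 and αE, had 47, 33 and 41 reads in HET mice 1 to 3 and 20, 7 and 33 reads in WT mice. The CPM were 1.26, 1.23 and 0.934 in HET and 0.669, 0.248 and 0.669 in WT. WT mouse 2, with 7 reads, was the lowest, and the groups did not overlap. For β7 the log2 fold change was 1.06 ± 0.38 (95% interval 0.22 to 1.90), with an adjusted p in edgeR of 0.441.

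*Itgae* (ENSMUSG00000005947, chromosome 11, 73090583 to 73147446, plus strand), the αE chain (CD103) known from lymphocytes within epithelia and from a subset of dendritic cells, was the exception in direction. It had 66, 44 and 86 reads in HET mice 1 to 3 and 86, 56 and 90 reads in WT mice. The CPM were 1.76, 1.64 and 1.96 in HET and 2.88, 1.99 and 1.82 in WT. The groups overlapped, and WT mouse 1 stood above the other 5 mice. Without WT mouse 1 the log2 fold change of *Itgae* was -0.084. For αE the log2 fold change was -0.30 ± 0.24 (95% interval -0.84 to 0.23), with an adjusted p in edgeR of 0.872, so that the interval includes no difference. Its upper end, at 0.230, just overlaps the interval of *Itgb7*, which starts at 0.225. The intervals of *Itgb2*, *Itgam* and *Fermt3* start higher, at 1.01, 0.463 and 0.353. Those of *Itgax*, *Itga4* and *Itgal* start lower, at 0.156, 0.133 and -0.186, and overlap that of *Itgae*. Differences in fold change between genes were not tested. The gene *Haspin* lies within *Itgae* on the other strand and shares 0 exon bases with it.

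*Fermt3* (ENSMUSG00000024965, chromosome 19, 6998958 to 7019469, minus strand), the activator of β1, β2 and β3 integrins in blood-derived cells, had 39, 31 and 53 reads in HET mice 1 to 3 and 19, 15 and 27 reads in WT mice. The CPM were 1.04, 1.16 and 1.21 in HET and 0.635, 0.532 and 0.547 in WT. The mice of each genotype lay close together with a wide gap between the genotypes. The mean was 1.13 ± 0.08 CPM in HET and 0.572 ± 0.056 CPM in WT (SD, n = 3), 1.99 times as high. The log2 fold change was 0.99 ± 0.29 (95% interval 0.35 to 1.63), and the adjusted p in edgeR was 0.280. Within genotypes the variance of *Fermt3* was 0.21 times that of counting alone, whereas in the 7 integrin chains it was 2.21 to 4.55 times as large. From 3 mice per genotype such ratios are imprecise, and whether *Fermt3* varies less than the integrin chains was not tested. At 15 reads, the lowest count of *Fermt3*, counting alone gives an error of 25.8%.

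**Figure D2:**
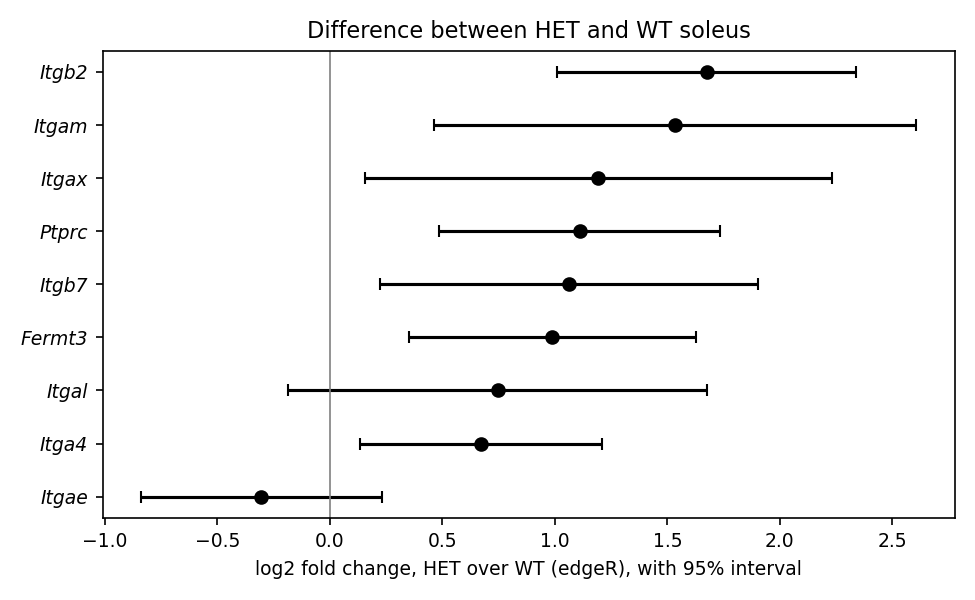
Log2 fold change of HET over WT (x axis) for the 8 genes and *Ptprc*, with 95% intervals from edgeR. The intervals of *Itgal* and *Itgae* include 0 and those of the other 7 genes lie above 0, from *Itga4* at 0.67 to *Itgb2* at 1.67, without correction for the number of genes tested.

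Compared per length, the level of *Itgb2* stood out in HET soleus with 0.947 ± 0.146 CPM per kb (SD, n = 3), followed by *Fermt3* with 0.439 ± 0.033, *Itgb7* with 0.416 ± 0.065 and *Itgae* with 0.390 ± 0.035 CPM per kb. Next came the α chains *Itga4* with 0.231 ± 0.023, *Itgam* with 0.177 ± 0.053, *Itgax* with 0.167 ± 0.058 and *Itgal* with 0.136 ± 0.057 CPM per kb. Only 2 steps in this order had no overlap between mice, from *Itgb2* to *Fermt3* and from *Itgae* to *Itga4*. In WT soleus *Itgae* came first with 0.486 ± 0.124 CPM per kb, then *Itgb2* with 0.303 ± 0.123, *Fermt3* with 0.221 ± 0.022, *Itgb7* with 0.193 ± 0.089 and *Itga4* with 0.144 ± 0.042. There *Itgal*, *Itgax* and *Itgam* were at 0.0841, 0.0743 and 0.0653 CPM per kb, and every neighbor in the WT order overlapped the next. Taken over its 1574 unshared bases, *Itgam* came to 0.566 CPM per kb in HET and 0.208 CPM per kb in WT, above *Itgal* and *Itgax* in both genotypes. By its mean it then came after *Itgb2* and before *Fermt3* in HET, and between *Fermt3* and *Itgb7* in WT, so that its place in the order depends on the length used.

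The share of each α chain among *Itgam*, *Itgal* and *Itgax* shows which β2 integrins the muscle could hold. By reads per kb of whole length, *Itgam* made up 36.8% ± 5.5 in HET and 27.7% ± 6.3 in WT, *Itgal* 27.7% ± 6.8 and 39.3% ± 8.0, and *Itgax* 35.6% ± 11.9 and 33.1% ± 8.5 (SD, n = 3). The shares of all 3 chains overlapped between the genotypes. With the length of *Itgam* reduced to its unshared bases, a choice made after the overlap was found, *Itgam* made up 64.7% ± 5.4 in HET and 54.5% ± 8.0 in WT and was the largest share in all 6 mice. *Itgal* then made up 15.2% ± 2.8 in HET and 24.7% ± 6.3 in WT, and its share was lower in each HET mouse than in each WT mouse. The *Itgal* share was 13.1%, 14.2% and 18.4% in HET mice 1 to 3 and 18.8%, 24.0% and 31.3% in WT mice 1 to 3.

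**Figure D3:**
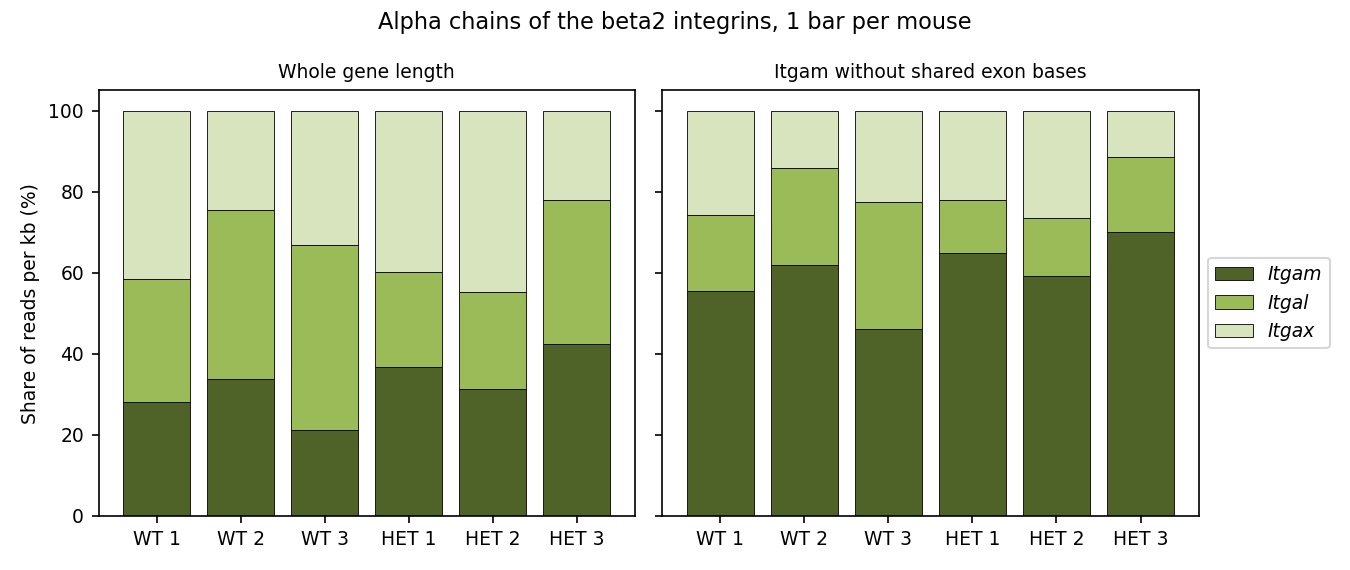
Share (%, y axis) of *Itgam*, *Itgal* and *Itgax* in their summed reads per kb, 1 bar per mouse, with whole gene lengths (left) and with the length of *Itgam* reduced to its unshared exon bases (right). On the right *Itgam* takes 46.1% to 70.1% of each bar.

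The balance of each α chain with β2 was compared as the log2 ratio of reads per kb to *Itgb2*. For *Itgal* the ratio was -3.18, -2.94 and -2.44 in HET mice 1 to 3 and -1.59, -1.95 and -1.95 in WT mice. It was lower in all 3 HET mice, by a difference of -1.02, with an exact permutation p of 0.1, the smallest that 3 against 3 mice allow, and of 0.3 after adjustment over the 3 ratios. For *Itgam* the difference was -0.12, with an exact permutation p of 0.8 (adjusted 0.8), and for *Itgax* it was -0.46, with an exact permutation p of 0.5 (adjusted 0.75), with overlap in both. The ratio of *Itgam* to *Itgb2* carries the same missing reads in both genotypes.

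*Ptprc* (CD45), a phosphatase on the surface of all leukocytes, had 3.77, 2.38 and 4.12 CPM in HET mice 1 to 3 and 1.77, 1.99 and 1.11 CPM in WT mice. The fitted change of *Ptprc* was 1.11 ± 0.28 on the log2 scale, with an adjusted p of 0.211 in edgeR. The members were therefore also compared as log2 ratios to *Ptprc* within each mouse. The ratio of *Itgae* to *Ptprc* was -1.09, -0.54 and -1.07 in HET and 0.69, 0.00 and 0.71 in WT. It was lower in all 3 HET mice, by a difference of -1.36, with an exact permutation p of 0.1 and an adjusted p of 0.8 over 8 ratios. The ratio of *Itgb2* to *Ptprc* was 0.61 higher in HET, with an exact permutation p of 0.2 (adjusted 0.8), and HET mouse 1 lay between the WT mice. The other 6 ratios overlapped, with differences from -0.41 for *Itgal* to 0.49 for *Itgam* and exact permutation p-values from 0.4 to 1 (adjusted 1). *Fermt3* and *Itgb7* were close to *Ptprc*, with differences of -0.10 and 0.13.

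**Figure D4:**
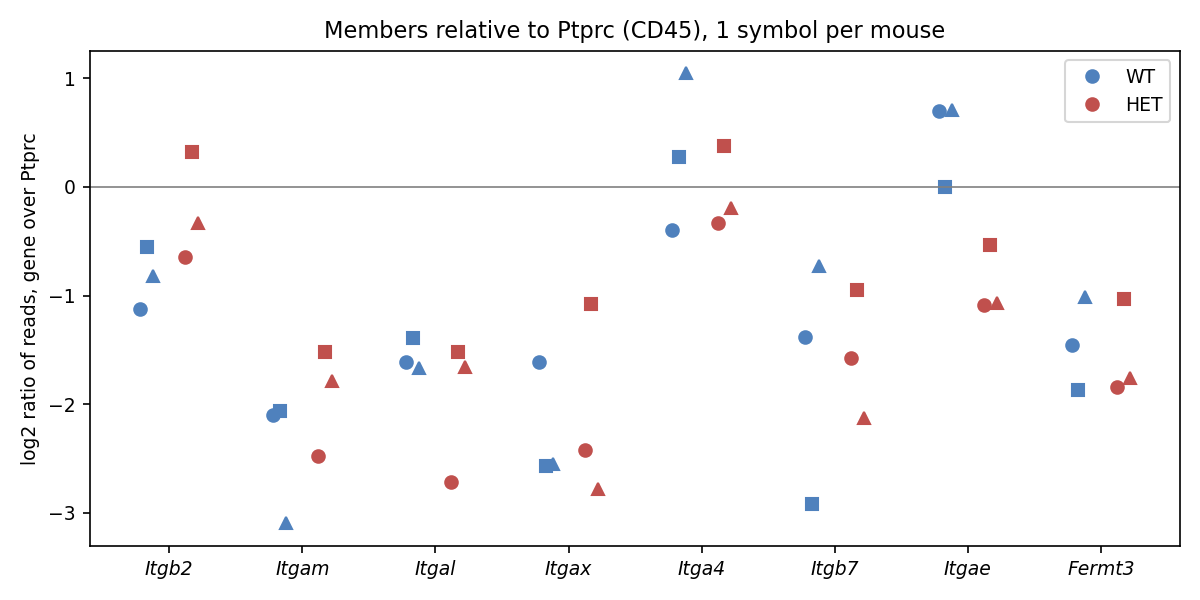
Log2 ratio of reads of each gene to *Ptprc* (y axis) in WT (blue) and HET (red) mice, with 1 symbol per mouse (circle, square and triangle for mice 1, 2 and 3). Only the *Itgae* values of the genotypes lie apart, with HET mice from -1.09 to -0.54 and WT mice from 0.00 to 0.71.

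Other genes of integrin function were grouped by role. Beside each list stand the shares over all genes tested in edgeR, 0.143% called higher and 5.76% higher at an unadjusted p below 0.05. The 18 genes of the inside-out activation list include talin, Rap1 and the adaptors between them, and 16 of them were tested. None passed the adjusted p in edgeR, and 2 were higher at an unadjusted p below 0.05, *Fyb*, an adaptor of hematopoietic cells, with a log2 fold change of 1.53 ± 0.36, and *Apbb1ip* (RIAM), which links Rap1 to talin, with 0.81 ± 0.21. The broadly expressed activators had values near 0, with 0.15 ± 0.11 for *Tln1*, 0.02 ± 0.11 for *Rap1b* and -0.12 ± 0.09 for the kindlin-2 gene *Fermt2*, the lowest of the list. The median over the 16 was 0.00. *Fermt2*, with 280 ± 22 CPM in HET and 303 ± 16 CPM in WT, was thus the far more abundant kindlin of the muscle, and kindlin-1 (*Fermt1*) had 0 to 1 reads.

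Of the 18 kinases, adaptors and exchange factors that act downstream of leukocyte integrins, all were tested, 0 were called at the adjusted p in edgeR and 13 were higher at an unadjusted p below 0.05, with a median of 0.97. The Src-family kinase gene *Fgr* was the highest with 1.86 ± 0.51, from 3 to 16 reads per mouse. In WT it had 0.0608 to 0.134 CPM, so it passed the filter on low counts through the HET mice. *Pik3cd*, a PI3-kinase subunit, was the lowest with -0.17 ± 0.14.

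Of 18 ligands and counter-receptors, 11 were tested, 0 were called and 5 were higher at an unadjusted p below 0.05, with a median of 0.00. Complement *C3*, whose fragment iC3b binds Mac-1 and CD11c, was the highest with 1.82 ± 0.40, and it had 20.4, 46.7 and 31.0 CPM in HET mice 1 to 3 against 7.26, 6.63 and 13.4 CPM in WT mice. The fibronectin gene *Fn1*, a ligand of α4β1, had 1.13 ± 0.31, and *Icam1*, the inducible ligand of LFA-1 and Mac-1, had 0.55 ± 0.17, each with every HET mouse above every WT mouse. The adjusted p in edgeR was 0.254 for *C3*, 0.358 for *Fn1* and 0.354 for *Icam1*. *Icam2*, the constitutive endothelial ligand of LFA-1, had 0.00 ± 0.21, and *Vcam1*, the ligand of α4β1, had -0.04 ± 0.15. *Madcam1*, the ligand of α4β7, had 0 reads in all 6 mice. E-cadherin (*Cdh1*), the ligand of αEβ7, had 5 to 24 reads and the lowest value of the list, -0.56 ± 0.53.

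Of 19 other integrin subunits, 18 were tested, 0 were called and 3 were higher at an unadjusted p below 0.05, with a median of 0.15. The highest was *Itga2*, a collagen-binding chain, with 1.22 ± 0.40 from 5 to 31 reads, and the lowest was *Itga6*, a laminin-binding chain, with -0.16 ± 0.11. Of 11 genes of rolling and transmigration, 10 were tested, 0 were called and 2 were higher at an unadjusted p below 0.05, with a median of 0.10. The selectin ligand gene *Selplg* (PSGL-1) was the highest with 1.08 ± 0.29, and the endothelial cadherin gene *Cdh5* the lowest with -0.18 ± 0.11.

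Most pan-leukocyte and macrophage markers were higher in HET, as were most of the integrin chains. All tested fibroblast and tenocyte markers, given at the end, also had log2 fold changes above 0. Over all genes tested, 0.143% were higher at an adjusted p below 0.05 in edgeR and 5.76% at an unadjusted p below 0.05. Of 9 pan-leukocyte genes, 2 were higher at an adjusted p below 0.05 in edgeR, *Laptm5* and *Coro1a*, and 8 at an unadjusted p below 0.05, with a median of 1.31, from *Arhgdib* at 0.31 to *Cd48* at 1.85. Their summed level was 32.9 to 38.4 CPM in HET and 17.3 to 21.8 CPM in WT. Of 14 macrophage genes, 5 were higher at an adjusted p below 0.05, *C1qa*, *C1qb*, *Lyz2*, *Adgre1* and *Csf1r*, and 11 at an unadjusted p below 0.05, with a median of 1.28, from *Mertk* at -0.10 to *Fcgr1* at 2.14. Their summed level was 125 to 160 CPM in HET and 76.2 to 102 CPM in WT. *Laptm5*, *Coro1a* and *Adgre1* lost the call in limma-voom, with an adjusted p of 0.0719, 0.0611 and 0.0611, and these 3 and *Csf1r* lost it in edgeR with non-robust dispersion, with an adjusted p of 0.0606. *Coro1a* also lost it with RLE scaling, with an adjusted p of 0.0502 in edgeR. The part of a change in cell number in the values of the 8 genes was not tested.

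Lists of other leukocytes rested on fewer tested genes. Of 4 monocyte genes 1 was tested, *Ccr2*, with a log2 fold change of 1.503 and an adjusted p of 0.123 in edgeR. Of 8 dendritic cell genes 4 were tested, 0 were called and 3 were higher at an unadjusted p below 0.05, with a median of 1.40, from *Zbtb46* at -0.25 to *Cd209a* at 2.89. Of 7 mast cell genes 5 were tested, 0 were called and 4 were higher at an unadjusted p below 0.05, with a median of 1.99, from *Kit* at -0.07 to *Cma1* at 2.95. In WT, *Cma1* had 0 to 0.142 CPM and *Cd209a* 0 to 0.182 CPM, so both passed the filter on low counts through the HET mice. Which genes of these short lists were tested thus depended in part on their HET levels, which can raise the counts of higher genes and the medians. Mast cell progenitors use α4β7, the product of *Itga4* and *Itgb7*, to enter the gut.

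Markers of lymphocytes, in some of which *Itgae* is expressed, were at unequal levels. Of 11 T cell genes 1 was tested, *Cd28*, a costimulatory receptor, with a log2 fold change of 0.17 and 55 to 155 reads per mouse. *Cd3e*, which encodes part of the T cell receptor complex, had 1 to 3 reads per mouse. The summed T cell list was 3.20 to 4.69 CPM in HET and 3.28 to 3.76 CPM in WT, most of it *Cd28*. The dendritic cell markers *Xcr1* and *Clec9a* had 0 to 6 and 0 to 7 reads. Of 7 NK cell genes 0 could be tested, with a summed level of 0.427 to 0.456 CPM in HET and 0.0669 to 0.213 CPM in WT. Of 7 B cell genes 2 were tested, 0 were called, and *Ighm* was at 0.71 and *Cd79b* at -0.31. Which cells the *Itgae* reads came from was not tested.

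Neutrophils carry abundant Mac-1, the product of *Itgam* and *Itgb2*. Of 10 neutrophil genes 1 was tested, *Csf3r*, with 0.05, and *Ly6g* had 0 reads in all mice. The summed neutrophil list was 3.99 to 6.63 CPM in HET and 4.38 to 4.64 CPM in WT, most of it *Csf3r*. HET mouse 3 held the most reads of *S100a9*, with 1.28 CPM against 0.213 CPM at most in the other mice, and of the monocyte gene *Chil3*, with 1.30 CPM against 0.243 CPM at most, 2 genes that were named after their values were seen. Of the untested genes of these lists, *Plac8*, *Ly6c2*, *S100a8*, *Retnlg*, *Ngp* and *Mpo* were also highest in HET mouse 3. They had 1.03, 0.798, 0.365, 0.342, 0.182 and 0.0456 CPM there and were likewise named after their values were seen. *Elane*, *Cxcr2* and *Camp* were highest in other mice. The tested genes of the same lists did not stand out in that mouse, with 3.56 CPM of *Ccr2* against 4.62 and 4.17 CPM in HET mice 1 and 2, and 4.33 CPM of *Csf3r* against 4.75 and 3.88 CPM. The same mouse had the highest *Itgb2*, *Itgam*, *Itgal*, *Itga4* and *Fermt3*. Without it the log2 fold change was 1.57 for *Itgb2* and 1.26 for *Itgam*, and the part of neutrophils and monocytes in these values was not tested. Of 3 eosinophil genes 0 could be tested, with 0.201 CPM at most in sum, and *Epx* had 0 reads.

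**Figure D5:**
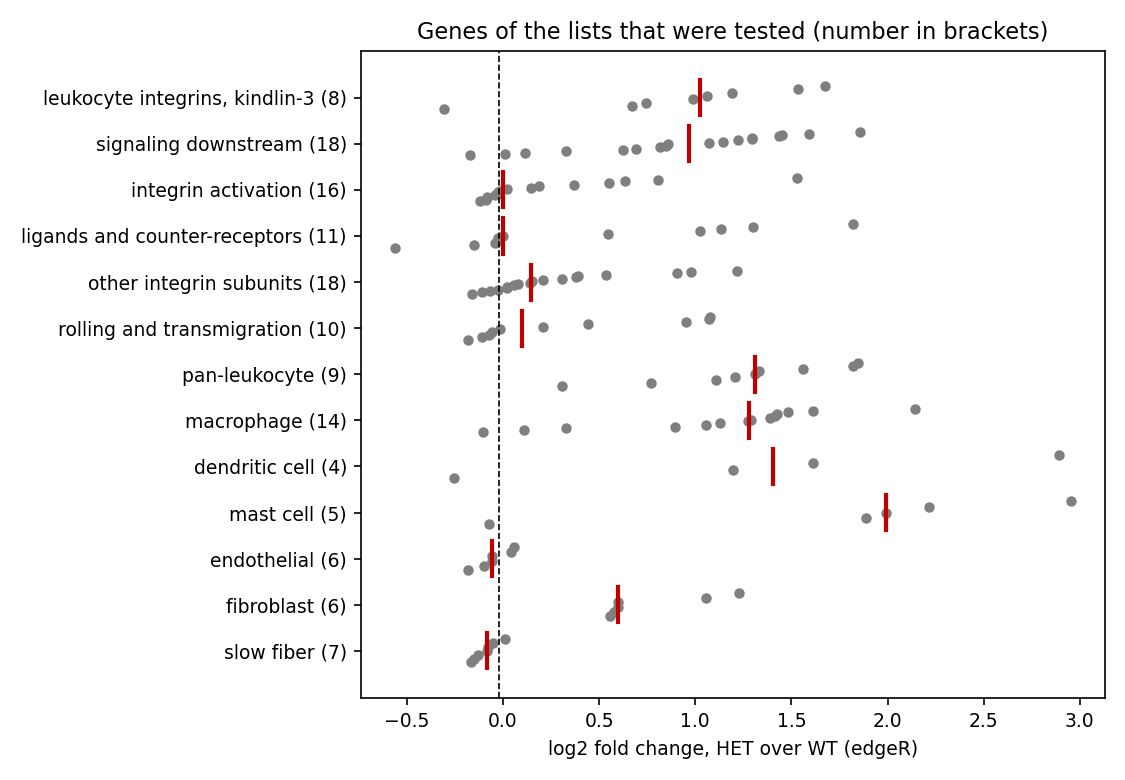
Log2 fold change of HET over WT from edgeR (x axis) for each tested gene (gray points) of 13 lists, with the number of tested genes in brackets, the median of the list (red bar) and the median of all genes tested (dashed line). The medians of the leukocyte integrins, of the downstream genes and of the pan-leukocyte, macrophage, dendritic cell and mast cell lists lie between 0.97 and 1.99, and those of the activation, ligand, endothelial and slow fiber lists lie between -0.08 and 0.00. The rolling, other integrin and fibroblast lists have medians of 0.10, 0.15 and 0.60. The tenocyte list, which is not plotted, has a median of 1.04.

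The genes whose log2 CPM followed *Itgb2* most closely over the 6 libraries were *Uggt1*, *Cacnb3*, *Myo1f*, *Tyrobp* and *Gbgt1*, with Pearson r between 0.989 and 0.998 among 14688 genes compared. The 6 points share the contrast of genotypes, and no p is given. *Myo1f*, a myosin of leukocytes, and *Tyrobp* (DAP12), a signaling adaptor of myeloid and NK cells, had log2 fold changes of 1.45 ± 0.30 and 1.44 ± 0.33. *Cacnb3*, a calcium channel subunit, had 0.87 ± 0.23 and *Gbgt1* 0.72 ± 0.38. *Uggt1*, a glycoprotein folding sensor of the endoplasmic reticulum, had only 0.07 ± 0.08, so that a high r over 6 libraries did not require a fold change of like size. Among the members, r with *Itgb2* was 0.93 for *Itgam*, 0.91 for *Fermt3*, 0.81 for *Itga4*, 0.80 for *Itgal*, 0.76 for *Itgax*, 0.52 for *Itgb7* and -0.51 for *Itgae*.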

How the data were processed

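RNA from soleus of 3 HET and 3 WT mice was sequenced as polyA-selected, stranded, single-end libraries. The authors aligned reads to GRCm38.p6 with STAR 2.7.3a and made the deposited raw counts per gene with featureCounts 2.0.3, reverse-stranded, leaving out reads on several places or several genes. The deposited normalized signal was scaled by library with DESeq2 size factors and served to find the genes and as a gene set. The authors' own comparison (fold changes, p-values) was not used.

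The 8 genes, the 22 other lists and the tests were chosen with earlier results of these data known. Counts were fitted in R 4.3.3 with edgeR 4.0.16 (TMM, filterByExpr with a minimum count of 10, robust quasi-likelihood test, two-sided, genotype only, Benjamini-Hochberg over 14696 genes, threshold 0.05). limma 3.58.1 (voom) and DESeq2 1.42.0 were alternatives, as were RLE and upper-quartile scaling, no filter, the genes of the authors' table, non-robust dispersion, a block on the replicate number and each mouse left out. Ratios had 0.5 reads added and were compared with two-sided exact permutation tests in SciPy 1.17.1. Log2 CPM used a prior count of 2. Lists are described by counts and medians without a test. Named singly were the 8 genes, *Mustn1*, *Ptprc*, *Itgad*, the sex-linked genes, direct ligands and activators, the called, highest and lowest genes of each list, and the 5 genes closest to *Itgb2*. Other names were added after their values were seen.

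Libraries of the same genotype differed beyond sampling noise (chi-square per gene 16.5 to 46.8). The coefficient of biological variation was 0.143. On simulated data with 200 changed genes among 14618, edgeR recovered 164 with 8 false calls. The simulated variance depended only on the level of a gene, so this recovery does not give the power for the 8 genes. In GENCODE M21, 94.1% of shared genes, and 7 of the 8, have the same coordinates as in the count table. Promoter sequences are from RefSeq. No column of values was left without a sample (0).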

Additional observations from a re-analysis of the deposited data

How the results depend on the processing

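All 8 log2 fold changes kept their direction under all 14 alternatives. *Itgb2* passed the adjusted p in 3 of them, with 1.68 in edgeR with no filter, 1.68 in DESeq2 and 1.71 with the replicate block, and *Itgam* in 1, with 1.54 with no filter. The number of the 8 genes called higher was 2 with no filter, 1 in DESeq2 and 1 with the block, and 0 in every fit that left out a mouse. Over all genes, 21 were higher and 1 lower, against 386 and 18 with no filter, 204 and 9 in DESeq2, 12 and 1 in limma-voom, 6 and 0 with non-robust dispersion, and 114 and 2 with the replicate block. With a mouse left out these counts ranged from 0 to 77 and from 0 to 6. Without WT mouse 3, 77 genes were higher and 6 lower, and without HET mouse 1, HET mouse 3, WT mouse 1 or WT mouse 2 both were 0. The cause was not tested. The 9 genes named as called, *Mustn1*, *Laptm5*, *Coro1a*, *C1qa*, *C1qb*, *Lyz2*, *Adgre1*, *Csf1r* and *Pi16*, kept their direction with each mouse left out but lost the call 41 times in all, and 10 times under the other alternatives, 6 of them with non-robust dispersion. Whether the replicate numbers pair the mice could not be settled. The deviations of same-numbered mice correlated at 0.20, -0.01 and -0.03, and only HET mouse 1 correlated best with the WT mouse of its number. Deviations from a mean of 3 mice depend on each other, so these values cannot exclude pairing. The block changed the call of *Itgb2* (adjusted p = 0.0460 in edgeR) and of no other of the 8 genes. With *Itgam* taken over its unshared bases, an alternative chosen after seeing the data, the shares in HET and WT became 64.7% and 54.5% for *Itgam*, 15.2% and 24.7% for *Itgal*, and 20.03% and 20.8% for *Itgax*, because the length is smaller. Leaving out a mouse turned the sign of some small differences. The log2 ratio to *Itgb2* ranged from -0.47 to 0.19 for *Itgam* and from -0.77 to 0.0011 for *Itgax*, and that to *Ptprc* from -0.35 to 0.50 for *Itgax*, -0.71 to 0.011 for *Itga4*, -0.49 to 0.60 for *Itgb7* and -0.36 to 0.12 for *Fermt3*. The ratio of *Itgal* to *Itgb2* ranged from -1.23 to -0.86 and that of *Itgae* to *Ptprc* from -1.60 to -1.24. Among genes of the lists, log2 fold changes ranged from -0.16 to 0.28 for *Icam2* (-0.0029 with the genes of the authors' table), -0.16 to 0.084 for *Vcam1*, -0.067 to 0.13 for *Rap1b*, -0.26 to 0.010 for *Pik3cd*, -0.28 to 0.048 for *Mertk*, -0.025 to 0.13 for *Csf3r*, -0.98 to 0.052 for *Cd79b*, -0.34 to 0.12 for *Kit*, -0.41 to 0.084 for *Hba-a1*, -0.073 to 0.23 for *Kdr* and -0.011 to 0.030 for *Myh7*. At the 6 to 57 reads per mouse of *Itgam*, *Itgal*, *Itgax*, *Itgb7* and *Fermt3*, depth limits precision, and counting alone gives an error of 40.8% at 6 reads. This percentage covers counting error only, whereas the 95% intervals of the log2 fold changes in edgeR also include variation between mice.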

Other observations

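Markers of endothelium, fibers, fibroblasts and tenocytes are given here for the other cells of the muscle. Of 6 endothelial genes, 0 were called in edgeR and 0 were higher at an unadjusted p below 0.05, with a median log2 fold change of -0.06, from *Cdh5* at -0.18 to *Kdr* at 0.06. Of 7 slow fiber genes 0 were called, with a median of -0.08, from *Tnnc1* at -0.17 to *Myh7* at 0.01, and of 7 fast fiber genes 0 were called, with a median of -0.17, from *Myh4* at -0.91 to *Myh2* at 0.14. Of 6 fibroblast genes 1 was called higher at an adjusted p below 0.05 in edgeR, *Pi16*, a marker of adventitial fibroblasts (adjusted p = 0.0606 with non-robust dispersion), and 6 were higher at an unadjusted p below 0.05, with a median of 0.60, from *Dpt* at 0.56 to *Col1a1* at 1.23. Of 5 tenocyte genes 0 were called and 3 were higher at an unadjusted p below 0.05, with a median of 1.04, from *Scx* at 0.15 to *Fmod* at 1.73.

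Of 6 platelet genes 1 was tested, *Pf4*, a chemokine of platelets and of some macrophages, with a log2 fold change of 1.17 and an adjusted p of 0.131 in edgeR, and the summed list was 2.31 to 3.12 CPM in HET and 1.21 to 1.44 CPM in WT. Of 4 red blood cell genes in the table, 0 were called, and all 4 had values below 0, with a median of -0.30, from *Alas2* at -0.40 to *Hba-a1* at -0.13. Their summed level was 29.4 to 52.4 CPM in HET and 35.5 to 58.2 CPM in WT, with overlap between the genotypes.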
